A study of Mus musculus with 12 samples.

Results

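Nicotine vapor was compared with room air in the thoracic aorta of mice whose label is a knockout (KO) of alpha7, a nicotinic acetylcholine receptor. The comparison rests on 6 of the series' 12 RNA-seq libraries, whose groups were taken from their labels. The 3 air libraries carry the numbers 1, 2 and 7 and the 3 nicotine libraries the numbers 3, 4 and 5. All mice were C57BL/6J, the KO groups carrying the alpha7-nAChR KO genotype and the others being wild type (WT). They inhaled nicotine vapor or room air over 12 weeks, starting at 5 months of age, and were 8 months old when the tissue was collected. The other 6 libraries, WT air 8, 9 and 10 and WT nicotine 6, 11 and 12, enter the fit's estimate of the spread, and so the edgeR standard errors and p-values in KO, and show whether a value in KO differed from that in WT. The aortas had been cleaned of fat and frozen before RNA was extracted and amplified with a low-input kit. The labels leave out the allele, whether the knockout is in the whole body, the sex of the mice, and whether the libraries come from separate mice.

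The alpha7 receptor, encoded by Chrna7, is a channel of identical subunits that opens to acetylcholine and nicotine and lets calcium into the cell. It is known from neurons, and also from macrophages, endothelium and smooth muscle, where its activation restrains the release of inflammatory cytokines. Nicotine binds many other nicotinic receptors too and raises catecholamine release, so mice without alpha7 can still respond to it. The aorta itself is built of smooth muscle and elastic sheets, lined by endothelium and wrapped in an adventitia of fibroblasts, immune cells, nerves and fat.

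Values below are CPM, counts normalised to the size of each library with edgeR's scaling, listed for air 1, 2 and 7 and then for nicotine 3, 4 and 5. Chrna7 stood at 2.21, 1.54 and 2.31 CPM in air and 2.29, 0.763 and 1.70 CPM in nicotine, from raw counts of 8 to 28 per library. The groups overlapped. The WT libraries stood at 1.91, 2.88 and 2.98 CPM in air, 1 inside the KO range and 2 above it, and at 0.885, 1.51 and 2.12 CPM in nicotine. Every KO library held counts of Chrna7, so a count over the whole gene does not check the genotype. The tissue label was set beside its markers. All 17 contractile smooth muscle genes, all 16 endothelial and all 12 fibroblast markers were detected well enough to be tested. All 29 hepatocyte genes passed the same filter, so passing it does not tell tissues apart. Across the 6 libraries, summed levels ran from 34621 to 57826 CPM for contractile genes and from 785 to 7061 CPM for hepatocyte genes.

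The 6 libraries held 10390325 to 12232423 counts each, and the 12 together 10240031 to 12628323. Nicotine 3 stood apart from the rest. It had 19484 genes with a count against 18028 to 18556 in the other 5, and 211 genes were more than 4-fold above the median of the other 5 libraries, where the other libraries had 0 to 20 such genes. Of the 29 hepatocyte genes 25 were among the 211, and of the 13 tested skeletal muscle markers 7. Summed hepatocyte genes stood at 787, 2043 and 1178 CPM in air and 7061, 2485 and 785 CPM in nicotine. Summed skeletal muscle markers stood at 131, 171 and 195 CPM in air and 294, 158 and 113 CPM in nicotine. Cardiac muscle markers were highest in air 2, with 307, 676 and 169 CPM in air and 283, 189 and 241 CPM in nicotine. Nicotine 5 had 39 genes more than 4-fold below the median of the other 5, against 2 to 16 in the other libraries. The part these library differences have in the results below was not tested. For many lists, though not all, the median is also given without 1 library. Of the 50 list medians, 46 moved by over 1.5 times when a library was left out. In bulk tissue, fewer cells of a type and less RNA per cell cannot be told apart.

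**Figure D1:**
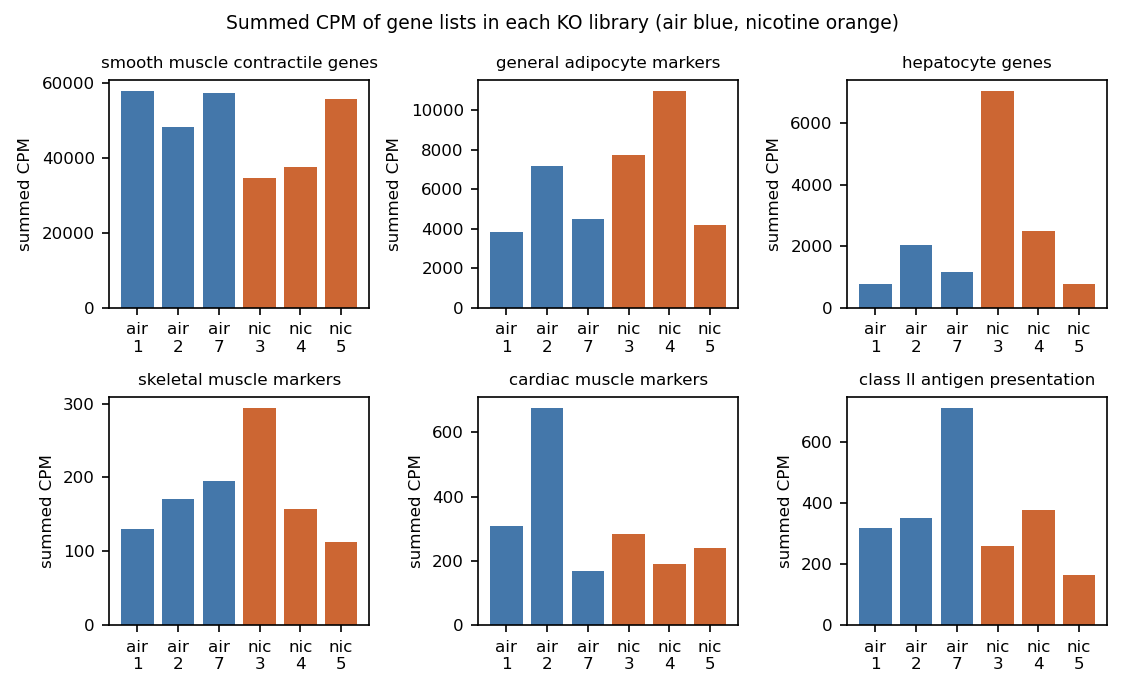
Summed CPM (vertical axis) of 6 gene lists in each KO library, with air 1, 2 and 7 as blue bars and nicotine 3, 4 and 5 as orange bars. Contractile genes were lower in nicotine 3 and 4 than in air while nicotine 5 lay inside the air range, and hepatocyte genes stood at 7061 CPM in nicotine 3.

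No gene passed the test for nicotine against air in KO aorta. Of 14621 genes tested, edgeR's quasi-likelihood test called 0 (0.0%), with a lowest Benjamini-Hochberg adjusted p of 0.878. At an unadjusted edgeR p under 0.05, 362 genes were higher in nicotine (2.48%) and 307 lower (2.1%), 669 in all, against 731.05 expected if no gene differed. Limma voom called 0 genes and DESeq2 on all 12 libraries called 0, with a lowest adjusted p of 0.101. Log2 fold changes were above 0 for 7534 genes (51.5%), with a median of 0.01. All 3 nicotine libraries lay above all 3 air libraries, called here without overlap, in 750 genes (5.13%) and below them in 811 (5.55%). A median standard error of 0.22 on the log2 scale sets the precision. The p-values measure only the spread between libraries, which may be technical.

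**Figure D2:**
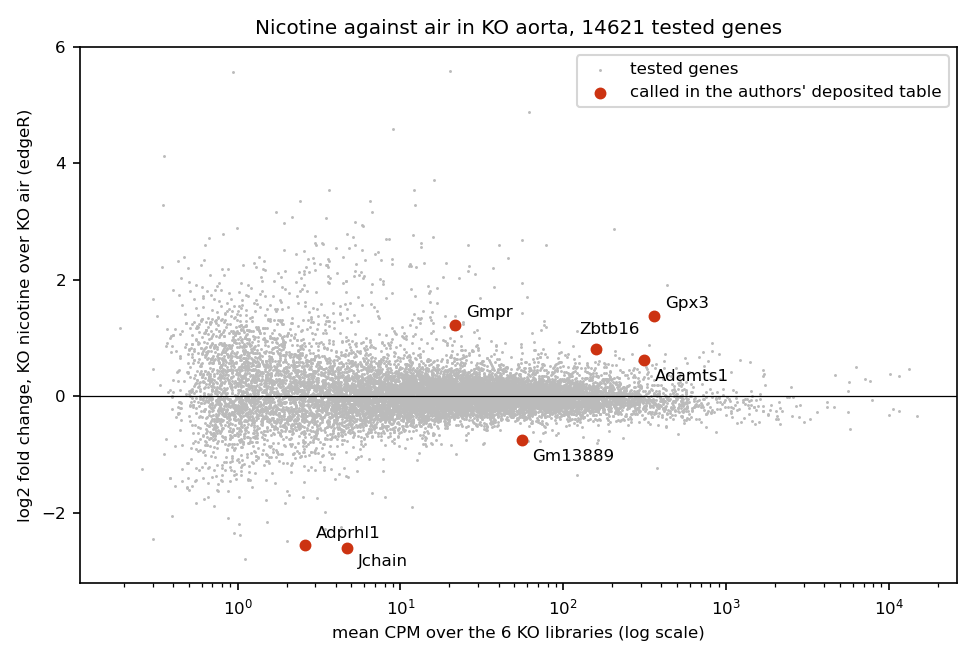
Log2 fold change of nicotine over air in KO (vertical axis, edgeR) against the mean CPM of the 6 KO libraries (horizontal axis, log scale), with each of the 14621 tested genes as a grey point. The 7 genes called in the authors' deposited table are red, 4 above and 3 below 0, and Jchain and Adprhl1 lie lowest among them.

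The authors' deposited table of the same comparison called 7 of 17195 genes with an adjusted p (0.0407%), 4 higher and 3 lower in nicotine. DESeq2 on the 6 KO libraries alone called these same 7, of 13979 genes (0.0501%). The lowest adjusted p among the genes not called in the authors' deposited table was 0.265. Jchain encodes the chain that joins immunoglobulin A and M into polymers and is made by plasma cells. It stood at 8.08, 7.52 and 8.58 CPM in air and 1.65, 1.53 and 0.809 CPM in nicotine. Each nicotine library was lower than each air library, and the log2 fold change, given throughout with its standard error, was -2.62 ± 0.39 (adjusted p = 2.06e-07) in the authors' deposited table and -2.60 ± 0.60 by edgeR (unadjusted p = 0.000814). Adprhl1, an ADP-ribosylhydrolase-like gene known from heart muscle, stood at 2.64, 5.04 and 5.70 CPM in air and 1.10, 0.858 and 0.324 CPM in nicotine, again without overlap (-2.57 ± 0.57, adjusted p = 0.0254 in the authors' deposited table). Gm13889, a gene with only a clone name, stood at 73.3, 68.4 and 67.9 CPM in air and 42.1, 35.4 and 46.9 CPM in nicotine (-0.75 ± 0.17, adjusted p = 0.0254 in the authors' deposited table).

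The 4 genes called higher in the authors' deposited table also separated the 2 groups of libraries. Zbtb16, a zinc finger transcription factor induced by glucocorticoids, stood at 114, 124 and 109 CPM in air and 194, 235 and 183 CPM in nicotine, a 1.76-fold higher mean. Its log2 fold change in the authors' deposited table was 0.82 ± 0.16 (adjusted p = 0.00125), while edgeR gave 0.82 ± 0.44 with an unadjusted p of 0.0909. The edgeR fit takes its estimate of the spread from all 12 libraries, and among the WT nicotine libraries Zbtb16 ran from 97.0 to 383 CPM. EdgeR on the 6 KO libraries alone, a fit with fewer libraries behind its estimate of the spread, did not call Zbtb16 either. The part of the WT spread in the difference between edgeR and the authors' deposited table was not tested. Gpx3, the secreted glutathione peroxidase, stood at 165, 268 and 171 CPM in air and 646, 647 and 278 CPM in nicotine (1.38 ± 0.31, adjusted p = 0.0254 in the authors' deposited table). Nicotine 3 and 4 were high and nicotine 5 lay just above the highest air library. Gmpr, which encodes guanosine monophosphate reductase, stood at 12.1, 16.8 and 10.3 CPM in air and 39.3, 28.4 and 23.5 CPM in nicotine (1.21 ± 0.27, adjusted p = 0.0254 in the authors' deposited table). Adamts1, a protease that cuts the proteoglycans aggrecan and versican, stood at 278, 213 and 249.9 CPM in air and 391, 371 and 384 CPM in nicotine (0.63 ± 0.14, adjusted p = 0.0294 in the authors' deposited table). Its 3 nicotine libraries were close to each other and clear of air.

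Among the 12 leading genes with higher values in nicotine, taken by unadjusted edgeR p with no overlap between the groups and a mean of at least 5 CPM in the higher group, several are known from the vessel wall. Tsc22d3, the glucocorticoid-induced leucine zipper, stood at 40.2, 47.4 and 48.5 CPM in air and 109.6, 93.2 and 56.7 CPM in nicotine (log2 fold change 0.93 ± 0.20). Sox18, an endothelial transcription factor, stood at 16.5, 19.2 and 16.5 CPM in air and 32, 28.5 and 21.2 CPM in nicotine (0.64 ± 0.16). Notch1, a receptor of endothelium and smooth muscle, stood at 106, 88.5 and 93.5 CPM in air and 161, 129.9 and 114 CPM in nicotine (0.49 ± 0.13). In all 3 genes nicotine 3 was the highest library and nicotine 5 the lowest of the nicotine group. Arhgap42, a brake on RhoA in smooth muscle, stood at 10.5, 10.6 and 7.02 CPM in air and 18.4, 19.3 and 12.1 CPM in nicotine (0.82 ± 0.23). Smpd3, the neutral sphingomyelinase that makes ceramide, stood at 20.9, 16.2 and 17.4 CPM in air and 39.5, 28.1 and 27.2 CPM in nicotine (0.80 ± 0.19). Plxna2, a semaphorin receptor, stood at 81.5, 77.6 and 74.2 CPM in air and 133, 124 and 94.8 CPM in nicotine (0.59 ± 0.15). Arhgap42 and Plxna2 were lowest in nicotine 5 among the nicotine libraries, while in Smpd3 nicotine 4 and 5 were nearly level.

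The transferrin receptor gene Tfrc, which brings iron into the cell, had its highest value in nicotine 5 instead. It stood at 30.6, 25.6 and 17.4 CPM in air and 35.4, 45.6 and 60.6 CPM in nicotine (log2 fold change 0.94 ± 0.24). Zfp407, a zinc finger gene, was even within each group, at 35.3, 35.7 and 29.5 CPM in air and 51.1, 47 and 49.3 CPM in nicotine (0.55 ± 0.12, edgeR unadjusted p = 0.000358). The others were Fam126b, a member of the hyccin family (0.51 ± 0.13), Polr1a, the largest subunit of RNA polymerase I (0.53 ± 0.14), Adam23, a cell surface protein that binds integrins (1.06 ± 0.29), and the sterol transfer gene Gramd1b (1.08 ± 0.30). Gramd1b stood at 9.18, 10.7 and 9.82 CPM in air and 32.9, 17.9 and 12.2 CPM in nicotine, with a wide spread among the nicotine libraries.

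The leading genes with lower values in nicotine began with Jchain and Dync2li1, a subunit of the dynein motor of cilia. Dync2li1 stood at 13.6, 10.2 and 10.6 CPM in air and 5.86, 6.77 and 8.01 CPM in nicotine (log2 fold change -0.73 ± 0.19). Angpt2, the ligand of the endothelial receptor Tie2 that loosens vessels where VEGF is scarce, stood at 92.5, 84.9 and 94.9 CPM in air and 54.1, 49.8 and 71.9 CPM in nicotine (-0.63 ± 0.18). Nicotine 3 and 4 were the low libraries for Angpt2 and nicotine 5 lay between them and air. Myom1, which encodes the M-band protein myomesin, stood at 496, 488 and 523 CPM in air and 277, 354 and 416 CPM in nicotine (-0.53 ± 0.16), nicotine 5 again lying nearest to air. Acot11, an acyl-CoA thioesterase of brown fat, stood at 85.6, 135 and 112 CPM in air and 54.4, 73.7 and 82.1 CPM in nicotine (-0.66 ± 0.19), the top nicotine library reaching almost to the lowest air library. Crhr2, the receptor of urocortins, stood at 7.65, 7.35 and 6.77 CPM in air and 2.20, 2.57 and 5.42 CPM in nicotine (-1.08 ± 0.32). The connexin gene Gja6 (-1.04 ± 0.30), Cxx1c (-0.72 ± 0.21), Fam84a (-0.99 ± 0.29), the nuclear transport gene Ranbp17 (-0.83 ± 0.25) and the adhesion gene Lrrc4b (-1.24 ± 0.37) completed the 11 described.

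Nicotine 5 was the library nearest to the air mean in 9 of the 12 leading higher genes and 9 of the 11 leading lower genes. Over all genes without overlap it was nearest in 341 of the 750 above and 418 of the 811 below. None of the 23 leading genes passed the edgeR threshold, and the smallest adjusted p reached by leaving out a library was 0.0715 for Tsc22d3 without nicotine 5 (edgeR), where its log2 fold change was 1.16.

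**Figure D3:**
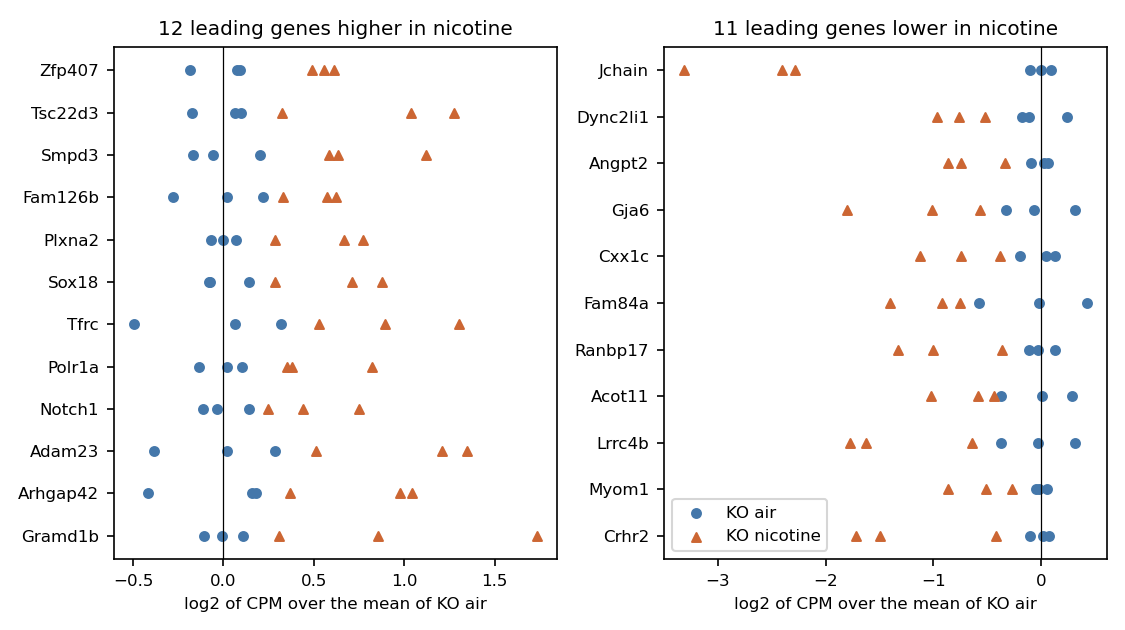
Log2 of each library's CPM over the mean of the 3 KO air libraries (horizontal axis) for the 12 leading higher and 11 leading lower genes (rows), air libraries as blue circles and nicotine libraries as orange triangles. The groups do not overlap because the genes were chosen so, and the spread among the nicotine libraries is wide for Gramd1b, Adam23 and Lrrc4b and narrow for Zfp407.

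Contractile genes of smooth muscle had lower values in nicotine, though none passed. Of 17 tested, 16 had a log2 fold change below 0, where 48.5% of all genes did, and the median was -0.35 against 0.01 over all genes. Lmod1, which nucleates actin filaments, was the 1 member of 17 without overlap, where 5.55% of all genes lay below air in this way. It stood at 1033, 1005 and 1116 CPM in air and 596, 636 and 833 CPM in nicotine (-0.61 ± 0.22, edgeR unadjusted p = 0.0153). Synpo2, an actin-bundling protein, stood at 1882, 1594 and 1781 CPM in air and 956, 1226 and 1617 CPM in nicotine (-0.47 ± 0.19). Myl9, the regulatory light chain, stood at 1904, 1699.5 and 1909 CPM in air and 1056, 1234 and 1749 CPM in nicotine (-0.45 ± 0.20). In these genes nicotine 3 and 4 were low, while nicotine 5 lay inside the air range for Synpo2 and Myl9 and between the other nicotine libraries and air for Lmod1. The smooth muscle actin gene Acta2 (-0.33 ± 0.24), the myosin gene Myh11 (-0.35 ± 0.24) and the tropomyosin gene Tpm2 (-0.39 ± 0.20) had nicotine 5 above the lowest air library. Summed over the list, the libraries stood at 57826, 48290.2 and 57219.9 CPM in air and 34621, 37652 and 55767 CPM in nicotine.

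Genes of the actin-MRTF-SRF pathway, in which serum response factor drives contractile genes together with its cofactors, had 8 of 10 members below 0 and a median of -0.23 (-0.12 without nicotine 4, -0.41 without nicotine 5). The 2 above 0 were the cofactor genes Mkl1 (0.15) and Mkl2 (0.002). A further cofactor gene, Myocd (0.17), was the 1 contractile list member above 0. Csrp1, a LIM protein of actin bundles, stood at 1365, 1261 and 1399 CPM in air and 892, 853 and 1189 CPM in nicotine (-0.46 ± 0.18), without overlap. Srf stood at 111, 91.4 and 102 CPM in air and 71.4, 72 and 94.2 CPM in nicotine (-0.36 ± 0.15), nicotine 5 lying inside the air range. Of 16 calcium channels, pumps and exchangers, 12 were below 0, with a median of -0.24 (-0.10 without nicotine 3). The sodium-calcium exchanger gene Slc8a3 was the only one with an unadjusted p under 0.05, at 10.8, 9.06 and 13.5 CPM in air and 5.95, 7.25 and 6.31 CPM in nicotine (-0.78 ± 0.25, edgeR unadjusted p = 0.00889), and its 3 nicotine libraries were all low. Fat moved with this result. The 17 adipocyte markers summed to 3859, 7161 and 4478 CPM in air and 7754, 10983 and 4179 CPM in nicotine, so the 2 libraries with the lowest contractile sums had the highest adipocyte sums. Its part in the contractile values was not tested.

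Serum response factor binds the CArG box, a short AT-rich core between CC and GG. The 250 bases before the start of each gene, from RefSeq's promoters on GRCm38.p6, were searched on both strands for it. The box was present in 1.62% of all 27025 genes with a promoter entry and in 1.49% of the tested genes with one. In the lists it was present in 2 of the 13 contractile genes and 2 of the 7 pathway genes that matched an entry. These 4 promoter stretches are shown because their genes are the ones in the 2 lists that hold the box, which is in capitals, and Myl6 and Vcl were chosen for it rather than for their values. Myl9 lies at chr2:156775278-156775337 on the plus strand, Myl6 at chr10:128493025-128493084 on the minus strand, Srf at chr17:46556190-46556269 on the minus strand with 2 boxes, and Vcl at chr14:20929148-20929205 on the plus strand.
Myl9: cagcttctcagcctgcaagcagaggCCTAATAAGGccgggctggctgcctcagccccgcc
Myl6: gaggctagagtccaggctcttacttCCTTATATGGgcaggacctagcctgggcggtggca
Srf: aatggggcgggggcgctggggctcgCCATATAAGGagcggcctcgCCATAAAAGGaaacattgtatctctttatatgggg
Vcl: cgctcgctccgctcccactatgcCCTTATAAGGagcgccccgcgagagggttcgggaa
The last base of each stretch is nearer to the gene's start, and the boxes begin 161 bases before it in Myl9, 50 in Myl6, 82 and 62 in Srf and 227 in Vcl. Their log2 fold changes in KO were -0.45 ± 0.20 for Myl9, -0.30 ± 0.17 for the essential light chain gene Myl6, -0.36 ± 0.15 for Srf and -0.12 ± 0.17 for the vinculin gene Vcl. Over all tested genes with a promoter entry, the 162 with a box had a median log2 fold change of -0.06 and the 10704 without one a median of 0.01. A match is a description of the letters, not a bound site.

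The matrix lists had medians near 0, with single members on either side. Elastic fibre genes had 11 of 15 members below 0 (median -0.15, -0.04 without nicotine 4, -0.27 without nicotine 5), fibrillar collagens and their processing enzymes 9 of 15 (median -0.10), and fibroblast markers 9 of 12 (median -0.03). Elastin (Eln) stood at 825, 669.8 and 694 CPM in air and 741, 415 and 1141 CPM in nicotine (0.07 ± 0.31), nicotine 4 being the lowest and nicotine 5 the highest of the 6. Type I collagen (Col1a1) stood at 1909.9, 1063 and 1792 CPM in air and 1157, 1145 and 1894 CPM in nicotine (-0.18 ± 0.25), with full overlap. The microfibril gene Mfap2 stood at 5.95, 7.09 and 9.33 CPM in air and 3.11, 4.29 and 6.15 CPM in nicotine (-0.72 ± 0.32). Among 15 matrix proteases and inhibitors, beside Adamts1, the related protease gene Adamts4 had lower values without overlap, at 2.89, 1.88 and 1.82 CPM in air and 0.916, 0.667 and 0.809 CPM in nicotine (-1.45 ± 0.54). The inhibitor gene Timp4 stood at 9.27, 19.2 and 11.7 CPM in air and 25.3, 37.1 and 18 CPM in nicotine (1.0 ± 0.42), with nicotine 5 inside the air range. Of the enzymes that make hyaluronan, Has3 stood at 7.06, 5.04 and 6.52 CPM in air and 10.4, 11 and 11.6 CPM in nicotine (0.82 ± 0.30, edgeR unadjusted p = 0.0163) and its nicotine libraries all lay above air. Has1 did not overlap either, at 2.72, 2.31 and 1.90 CPM in air and 3.94, 2.96 and 2.99 CPM in nicotine (0.51 ± 0.27).

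Endothelial markers leaned upward, with 13 of 16 above 0, where 51.5% of all genes were, and a median of 0.26 (0.15 without air 7). Apart from Sox18, already among the leading genes, only Nos3, the endothelial nitric oxide synthase, had an unadjusted edgeR p under 0.05. Over all genes 2.48% were higher at that threshold. Nos3 stood at 28.2, 36.4 and 25.3 CPM in air and 58, 29.8 and 41.2 CPM in nicotine (0.52 ± 0.22, edgeR unadjusted p = 0.0362), nicotine 4 lying inside the air range. The adhesion genes Pecam1 (0.24 ± 0.21) and Cdh5 (0.27 ± 0.24) overlapped, and the tight junction gene Cldn5 had lower values, at 14.6, 19.1 and 11.6 CPM in air and 8.06, 12.7 and 11.7 CPM in nicotine (-0.48 ± 0.29). Of the 14 angiopoietin and VEGF genes 10 were above 0 (median 0.29, 0.44 without nicotine 5), with Angpt2 the lowest of them. In the nitric oxide and cGMP pathway 8 of 15 genes were above 0 (median 0.25, 0.0048 without nicotine 3, 0.38 without nicotine 5). That median turned to -0.07 with limma voom and to -0.21 over the 8 members with at least 10 CPM in 3 libraries. Its members went separate ways. Gucy1a3, a subunit of the nitric oxide receptor of smooth muscle, stood at 319, 258 and 295 CPM in air and 156, 175 and 289.7 CPM in nicotine (-0.49 ± 0.22), following the contractile genes. Pde1a, a phosphodiesterase that breaks down cyclic nucleotides, stood at 34.5, 32.6 and 29.8 CPM in air and 37.9, 45.8 and 37.3 CPM in nicotine (0.32 ± 0.14), without overlap. Arg1, the arginase of hepatocytes and macrophages, reached 32.1 CPM in nicotine 3 and 0.510 to 4.53 CPM in the other 5. The endothelin receptor gene Ednrb stood at 14.4, 13.4 and 9.33 CPM in air and 29, 32.3 and 11.2 CPM in nicotine (0.96 ± 0.52), with nicotine 3 and 4 high.

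Glucocorticoid-responsive genes had 14 of 15 members above 0 and a median of 0.46 (0.33 without nicotine 3, 0.72 without nicotine 5). In 5 of 15 all nicotine libraries lay above all air libraries, where 5.13% of all genes did. These were Tsc22d3, Zbtb16, Fkbp5, Ddit4 and Errfi1. Fkbp5, a co-chaperone of the glucocorticoid receptor, stood at 47.9, 42.5 and 45.9 CPM in air and 164, 77.5 and 60.3 CPM in nicotine (1.15 ± 0.47). Nicotine 3 was far above the others. Ddit4, an inhibitor of mTORC1, stood at 5.27, 4.44 and 6.44 CPM in air and 9.44, 8.30 and 7.69 CPM in nicotine (0.65 ± 0.31). Errfi1, which restrains the epidermal growth factor receptor, stood at 90.5, 89.1 and 84.8 CPM in air and 153, 96.2 and 93.2 CPM in nicotine (0.37 ± 0.25), with nicotine 3 again the high library and the other 2 just above air. By DESeq2 on all 12 libraries, the log2 nicotine effect on Errfi1 in KO minus that in WT was -1.69 (DESeq2 adjusted p = 0.0168). EdgeR did not call this difference. In WT 14 of the 15 list genes were above 0 too, with a median of 0.68.

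The full glucocorticoid response element, an inverted repeat with a spacer of 3 bases, was searched in the same promoters on both strands. It was present in 1 of the 13 list genes with a promoter entry and in 3 of all 27025 genes with one. The match lies in Sgk1, a kinase of salt transport, at chr10:21993676-21993740 on the plus strand of GRCm38.p6, 189 bases before the start, and is shown in capitals because it is the only one in the list.
Sgk1: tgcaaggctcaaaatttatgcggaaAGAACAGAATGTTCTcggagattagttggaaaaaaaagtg
Sgk1, chosen here for that match, stood at 75.9, 62.5 and 91.8 CPM in air and 109, 80.0 and 91.7 CPM in nicotine (0.29 ± 0.27), and its groups overlapped.

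Clock genes showed no common direction, with 7 of 19 above 0 and a median of -0.03. Bhlhe40, a repressor that feeds back on the clock and on immune genes, had lower values at 119.7, 124 and 124 CPM in air and 114, 84.6 and 75.8 CPM in nicotine (-0.42 ± 0.15, edgeR unadjusted p = 0.0120). The 3 air libraries were nearly level. Nfil3 stood at 8.93, 4.19 and 4.29 CPM in air and 10.2, 11.8 and 10.8 CPM in nicotine (0.91 ± 0.47) and did not overlap either. The repressor gene Cry1 stood at 7.57, 9.74 and 9.16 CPM in air and 38.8, 18.1 and 8.90 CPM in nicotine (1.31 ± 0.67). The clock activator gene Arntl stood at 8.84, 3.50 and 3.80 CPM in air and 2.20, 2.38 and 9.47 CPM in nicotine (-0.19 ± 0.93), with air 1 and nicotine 5 high and the other 4 low, so 1 library of each group stood apart from its fellows. Period gene Per1 stood at 126, 109 and 162 CPM in air and 149, 180.1 and 151 CPM in nicotine. No source used here gives the time of day of tissue collection.

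Immediate early genes, which respond within minutes to stimuli, were split in KO, 12 of 25 being above 0 with a median of -0.03. Fos stood at 425, 137 and 234 CPM in air and 207, 142 and 587 CPM in nicotine (0.23 ± 0.89), ranging as widely within a group as between them. Of the 3 Kruppel-like factor genes in the list, Klf6 had a log2 fold change of 0.01 and Klf4 and Klf2 had higher values. Klf4 stood at 91.3, 69.2 and 77.8 CPM in air and 128, 96.7 and 112 CPM in nicotine (0.50 ± 0.17, edgeR unadjusted p = 0.0113). Klf2, the flow-induced factor of endothelium, stood at 90.0, 97.6 and 96.1 CPM in air and 152, 115 and 156 CPM in nicotine (0.58 ± 0.31). The orphan nuclear receptor gene Nr4a3 stood at 57.8, 33.4 and 32.7 CPM in air and 146, 58.6 and 58.6 CPM in nicotine (1.09 ± 0.45), nicotine 3 being far above nicotine 4 and 5. None of the nicotine libraries of Klf4, Klf2 and Nr4a3 overlapped with air. They were the 3 of 25 list members above air without overlap, where 5.13% of all genes were.

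Genes of the unfolded protein and integrated stress response leaned upward, with 15 of 16 above 0 and a median of 0.31. The median stayed between 0.24 and 0.38 under every alternative listed in the closing section. The exception was Trib3 (-0.67), and the chaperone gene Hsp90b1 was near 0 (0.07). Hspa5, the main chaperone of the endoplasmic reticulum, stood at 486, 457 and 438 CPM in air and 878, 434 and 741 CPM in nicotine (0.57 ± 0.28), with nicotine 4 below all air libraries. Dnajb9, its co-chaperone, stood at 38.6, 39.6 and 42.6 CPM in air and 73.4, 48.1 and 45.8 CPM in nicotine (0.47 ± 0.17, edgeR unadjusted p = 0.0156), without overlap. Of 16 heat shock genes 14 were above 0 (median 0.22, 0.04 without nicotine 3). The constitutive chaperone gene Hspa8 stood at 1199, 1069 and 1088 CPM in air and 2578, 1314 and 1175 CPM in nicotine (0.59 ± 0.31), and the high value was that of nicotine 3. Antioxidant genes were split, 9 of 16 being above 0 (median 0.03). Gpx3 was the only one without overlap, where 5.13% of all genes lay above air in this way.

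Most lymphocyte and antigen presentation genes had lower values in nicotine. Class II antigen presentation genes had 7 of 7 members below 0, with a median of -0.79 (-0.37 without air 7). Their master regulator Ciita stood at 10.4, 7.95 and 19.5 CPM in air and 6.96, 8.30 and 5.58 CPM in nicotine (-0.86 ± 0.39). H2-DMb1, which helps load peptides, stood at 7.48, 4.44 and 9.99 CPM in air and 2.93, 5.91 and 3.56 CPM in nicotine (-0.82 ± 0.35). The invariant chain gene Cd74 stood at 144, 163 and 307 CPM in air and 114, 163 and 76.2 CPM in nicotine (-0.80 ± 0.39). Air 7 held the high values, nicotine 4 lay inside the air range, and nicotine 5 was the lowest for Ciita and Cd74. Of 11 B cell and plasma cell markers 9 were below 0 (median -0.77, -0.56 without nicotine 3, -1.11 without nicotine 4), and of 8 T cell markers 8 (median -0.74, -0.47 without air 7). The plasma cell markers Derl3 (log2 fold change 1.05) and Xbp1 (0.28) were above 0. Summed B cell and plasma cell markers were nearly level, at 121, 107 and 133 CPM in air and 123, 105 and 113 CPM in nicotine. Only 1 of the 11 B cell and plasma cell markers reached 10 CPM in 3 libraries, and its log2 fold change was 0.29. The T cell kinase gene Lck stood at 3.74, 1.88 and 2.23 CPM in air and 1.65, 0.667 and 1.21 CPM in nicotine (-1.14 ± 0.60) and the surface receptor gene Cd5 at 1.53, 1.37 and 1.40 CPM in air and 1.01, 0.0954 and 0.486 CPM in nicotine (-1.41 ± 0.71), both without overlap at levels of a few CPM.

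Myeloid genes had no common direction in KO. Macrophage markers had 14 of 19 above 0 and a median of 0.15 (-0.02 without nicotine 3). The members with the lowest p went both ways. Lyve1, a hyaluronan receptor, stood at 19.3, 21.7 and 15.5 CPM in air and 41.4, 19 and 25 CPM in nicotine (0.60 ± 0.24) and the haemoglobin scavenger receptor gene Cd163 at 39.4, 26.4 and 46.1 CPM in air and 64.9, 54.6 and 38.8 CPM in nicotine (0.50 ± 0.22), each with 1 nicotine library inside the air range. The fractalkine receptor gene Cx3cr1 stood on the lower side, at 3.74, 2.39 and 6.60 CPM in air and 0.824, 1.53 and 2.91 CPM in nicotine (-1.26 ± 0.59). Il1b, which encodes interleukin-1 beta, stood at 5.10, 2.65 and 3.80 CPM in air and 2.56, 0.763 and 1.46 CPM in nicotine (-1.26 ± 0.69), without overlap. The log2 fold changes of C1qa, a complement component, and Aif1 were -0.04 and -0.05. Neutrophil markers had 5 of 7 below 0 (median -0.36, -0.04 without air 2, -0.73 without nicotine 3), cytokine, chemokine and adhesion genes 10 of 19 (median -0.05) and interferon-stimulated genes 17 of 21 (median -0.28, -0.12 without air 7). All 6 tested mast cell markers were above 0 (median 0.71, 0.35 without nicotine 4). The mast cell protease gene Mcpt4 stood at 4.76, 6.58 and 4.38 CPM in air and 6.05, 17.2 and 7.04 CPM in nicotine (0.94 ± 0.41), and nicotine 4 carried the high value. All 6 red cell genes were below 0 (median -0.44), the globin gene Hba-a1 standing at 1574, 1168 and 1521 CPM in air and 1137, 808 and 1209 CPM in nicotine.

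Genes of fat and mitochondria went together. All 17 adipocyte markers were above 0, with a median of 0.60 that became 0.11 without nicotine 4. Adipoq, the adiponectin gene, stood at 122, 221 and 119 CPM in air and 243, 424 and 123 CPM in nicotine (0.77 ± 0.58). Nicotine 4 was highest, air 2 lay near nicotine 3, and nicotine 5 was level with air 1 and 7. Lpl, lipoprotein lipase, stood at 420.1, 916 and 474 CPM in air and 1271, 1355 and 477 CPM in nicotine (0.78 ± 0.49), nicotine 5 again being level with air 1 and 7. All 17 tested subunits of oxidative phosphorylation were above 0 (median 0.32, -0.003 without nicotine 4), and 14 of 15 fatty acid oxidation genes (median 0.40, 0.01 without nicotine 4). Etfa, which passes electrons from fatty acid oxidation to the respiratory chain, stood at 123, 223 and 126 CPM in air and 248, 364 and 158 CPM in nicotine (0.70 ± 0.42), with nicotine 4 again the highest. Mitochondrial genes took 3.73, 5.70 and 4.47% of all counts in air and 6.23, 7.25 and 4.38% in nicotine, highest in nicotine 4 and 3. The part this share has in the values of fat, oxidative phosphorylation and contractile genes was not tested.

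Of 9 brown fat genes 8 were above 0 (median 0.51, 0.19 without nicotine 4, 0.92 without air 2). The exception was Elovl3, a fatty acid elongase that brown fat induces in the cold, which stood at 11.5, 27.1 and 17.2 CPM in air and 9.71, 1.91 and 3.24 CPM in nicotine (-1.91 ± 0.84, edgeR unadjusted p = 0.0469). Every nicotine library was lower than every air library although the thermogenic gene Ucp1 stood at 466, 917 and 423 CPM in air and 825, 1027 and 723 CPM in nicotine (0.51 ± 0.53). Fatty acid synthesis genes also went apart from the other fat genes, with 8 of 11 below 0 and a median of -0.31 (0.02 without nicotine 3).

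Among markers of tissues beside the aorta, hepatocyte, cardiac and mesothelial medians turned sign with single libraries, while that of skeletal muscle did not. Hepatocyte genes had 28 of 29 above 0 and a median of 1.92, which became -0.57 without nicotine 3. Albumin (Alb) stood at 64.9, 327 and 154 CPM in air and 1815, 213 and 35.5 CPM in nicotine, and the urea cycle gene Cps1 at 1.11, 9.32 and 1.57 CPM in air and 341, 12.8 and 2.10 CPM in nicotine. Both were highest in nicotine 3, but nicotine 5 had less albumin than any air library. Skeletal muscle markers had 12 of 13 above 0 (median 2.15, 0.68 without nicotine 3). Of the 13, 8 were higher at an unadjusted edgeR p under 0.05, where 2.48% of all genes were. Their mean log2 CPM was 0.97, 1.25 and 0.66 in air and 3.83, 2.20 and 0.60 in nicotine, nicotine 5 being the lowest of the 6 libraries. Pvalb, the calcium buffer of fast muscle fibres, stood at 0.0850, 0 and 0 CPM in air and 3.94, 1.33 and 0.243 CPM in nicotine, from raw counts of 0 or 1 in the air libraries, and Acta1, skeletal actin, at 1.70, 2.91 and 1.90 CPM in air and 27.6, 5.63 and 2.35 CPM in nicotine. Cardiac markers had 6 of 8 below 0 (median -0.67, 0.06 without air 2), the myosin gene Myh6 standing at 116, 397 and 12.9 CPM in air and 101, 59.9 and 43.8 CPM in nicotine. Mesothelial markers had 6 of 9 below 0 (median -0.70, 1.11 without air 7), with mesothelin (Msln) at 1.96, 1.97 and 17.4 CPM in air and 2.84, 1.53 and 0.162 CPM in nicotine.

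Other receptor subunits for nicotine had few counts. Of 16 nicotinic subunits, 5 passed the filter on low counts, Chrna7 among them, and 4 of these were below 0 (median -0.21). The muscle-type subunit gene Chrnb1 stood at 11.6, 12.6 and 10.8 CPM in air and 10.5, 13.1 and 11.6 CPM in nicotine (0.01 ± 0.23), with complete overlap. Chrna1, Chrna2 and Chrnb2 lay at 0.243 to 3.05 CPM in the 6 libraries and overlapped too. Of the other cholinergic genes, Ache, the enzyme that breaks down acetylcholine, stood at 2.13, 1.79 and 4.46 CPM in air and 1.10, 1.53 and 1.13 CPM in nicotine (-1.15 ± 0.52, edgeR unadjusted p = 0.0460), without overlap. Among 16 tested genes of nicotine and xenobiotic metabolism 11 were above 0 (median 0.41, 0.07 without nicotine 3). Por, the reductase that serves the cytochromes, stood at 194, 244 and 243 CPM in air and 341, 379.9 and 209.9 CPM in nicotine (0.45 ± 0.20), with nicotine 5 inside the air range.

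Whether the response in KO differed from that in WT was tested as the interaction of nicotine and genotype, whose control samples are not shared. EdgeR called 0 of 14621 genes (0.0%), with a lowest adjusted p of 0.230 for Bhlhe40. At an unadjusted edgeR p under 0.05, 270 genes had a higher nicotine effect in KO (1.85%) and 377 a lower one (2.58%). DESeq2 on all 12 libraries called 9 (0.0616%), all with a lower effect in KO. In WT itself edgeR called 3 genes (0.0205%). Across the tested genes, which are not independent replicates, the log2 fold changes of KO and WT had a Pearson correlation of 0.14, and 59.8% had the same sign. In WT all 3 nicotine libraries lay above air in 7.13% of genes and below in 6.05%. They lay above air in both genotypes in 78 genes and below air in both in 71, while 21 genes were above in KO and below in WT and 22 below in KO and above in WT.

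Bhlhe40 had the clearest crossing. KO libraries stood at 119.7, 124 and 124 CPM in air and 114, 84.6 and 75.8 CPM in nicotine, while WT stood at 69.6, 86.6 and 79.8 CPM in air and 162, 154 and 133 CPM in nicotine. Lower in KO and higher in WT, it gave an edgeR interaction of -1.35 ± 0.21 on the log2 scale (edgeR adjusted p = 0.230, DESeq2 adjusted p = 3.1e-05). Part of the difference lies in the air groups, KO air being above WT air. Jchain and Adprhl1 showed the same feature. For Jchain, WT libraries stood at 0.435, 3.30 and 0.887 CPM in air and 1.38, 0.838 and 2.69 CPM in nicotine, so the 3 KO air libraries were the highest of all 12 and KO nicotine lay in the WT range. For Adprhl1, WT libraries stood at 0.783, 0.0824 and 0.403 CPM in air and 0.984, 1.26 and 0.898 CPM in nicotine. Its edgeR interaction was -3.85 ± 0.89, called by DESeq2 (adjusted p = 0.0327) but not by edgeR. All 9 libraries outside KO air lay under the lowest KO air library.

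**Figure D4:**
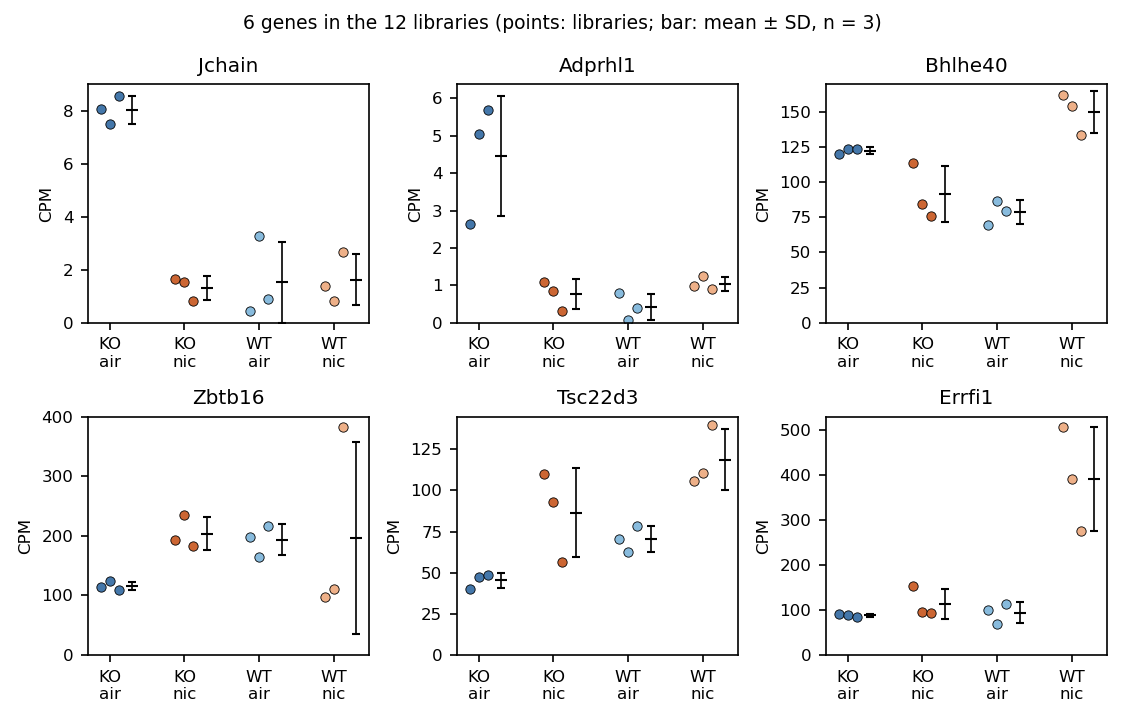
CPM (vertical axes, from 0) of 6 genes in the KO and WT libraries, each circle a library, with the mean ± SD of 3 libraries beside each group. For Jchain and Adprhl1 the KO air group stands above the other 3 groups, Bhlhe40 runs in opposite directions in KO and WT, and Zbtb16 in WT nicotine holds 1 library at 383 CPM.

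Genes with a higher nicotine effect in KO were led by Vipr1, a receptor of vasoactive intestinal peptide. In KO it stood at 5.02, 5.13 and 4.13 CPM in air and 13.9, 5.91 and 9.95 CPM in nicotine and in WT at 6.35, 9.39 and 14.9 CPM in air and 4.52, 4.95 and 6.21 CPM in nicotine (interaction 2.03 ± 0.48, edgeR unadjusted p = 0.000949). The groups separated in both genotypes, upward in KO and downward in WT. The same held for Cdk5rap1, a modifier of mitochondrial transfer RNA (1.16 ± 0.30), the Ras effector gene Rin1 (1.24 ± 0.33), the magnesium transporter gene Magt1 (0.55 ± 0.15) and Epm2aip1 (0.60 ± 0.18). Genes with a lower effect in KO included Sfrp4, a secreted inhibitor of Wnt signals. It stood at 93.4, 91.4 and 99.6 CPM in air and 87.6, 54.5 and 78.2 CPM in nicotine in KO and at 77.1, 110.5 and 73.5 CPM in air and 206, 152 and 259 CPM in nicotine in WT. Its edgeR interaction was -1.61 ± 0.31 (edgeR adjusted p = 0.777, DESeq2 adjusted p = 0.00668). Cd33, a sialic acid-binding lectin of myeloid cells, had an interaction of -2.10 ± 0.44, and Apold1, an early response gene of endothelium, one of -2.72 ± 0.58. Apold1 was near 0 in KO (-0.0046 ± 0.41) and higher in WT (2.71 ± 0.42). For Rcan1, an inhibitor of calcineurin, the interaction was -1.16 ± 0.24.

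Several gene lists had medians on opposite sides of 0 in the genotypes, given here without a test of the lists, beside a median interaction of 0.02 over all genes, of which 47.1% were below 0. Immediate early genes had a median of -0.03 in KO and 0.85 in WT, and 24 of 25 had a lower effect in KO. Class II genes had -0.79 in KO and 0.78 in WT, all 7 with a lower effect in KO. Interferon-stimulated genes had -0.28 in KO and 0.50 in WT, 20 of 21 lower in KO, and fatty acid synthesis genes -0.31 and 0.63, all 11 lower in KO. Red cell genes had -0.44 in KO and 0.41 in WT, all 6 lower in KO. Others had near equal medians, contractile genes -0.35 in KO and -0.43 in WT, oxidative phosphorylation subunits 0.32 and 0.30, adipocyte markers 0.60 and 0.71, mast cell markers 0.71 and 0.67, and endothelial markers 0.26 and 0.23. Hepatocyte genes had 1.92 in KO and 0.11 in WT, the first resting on nicotine 3.

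**Figure D5:**
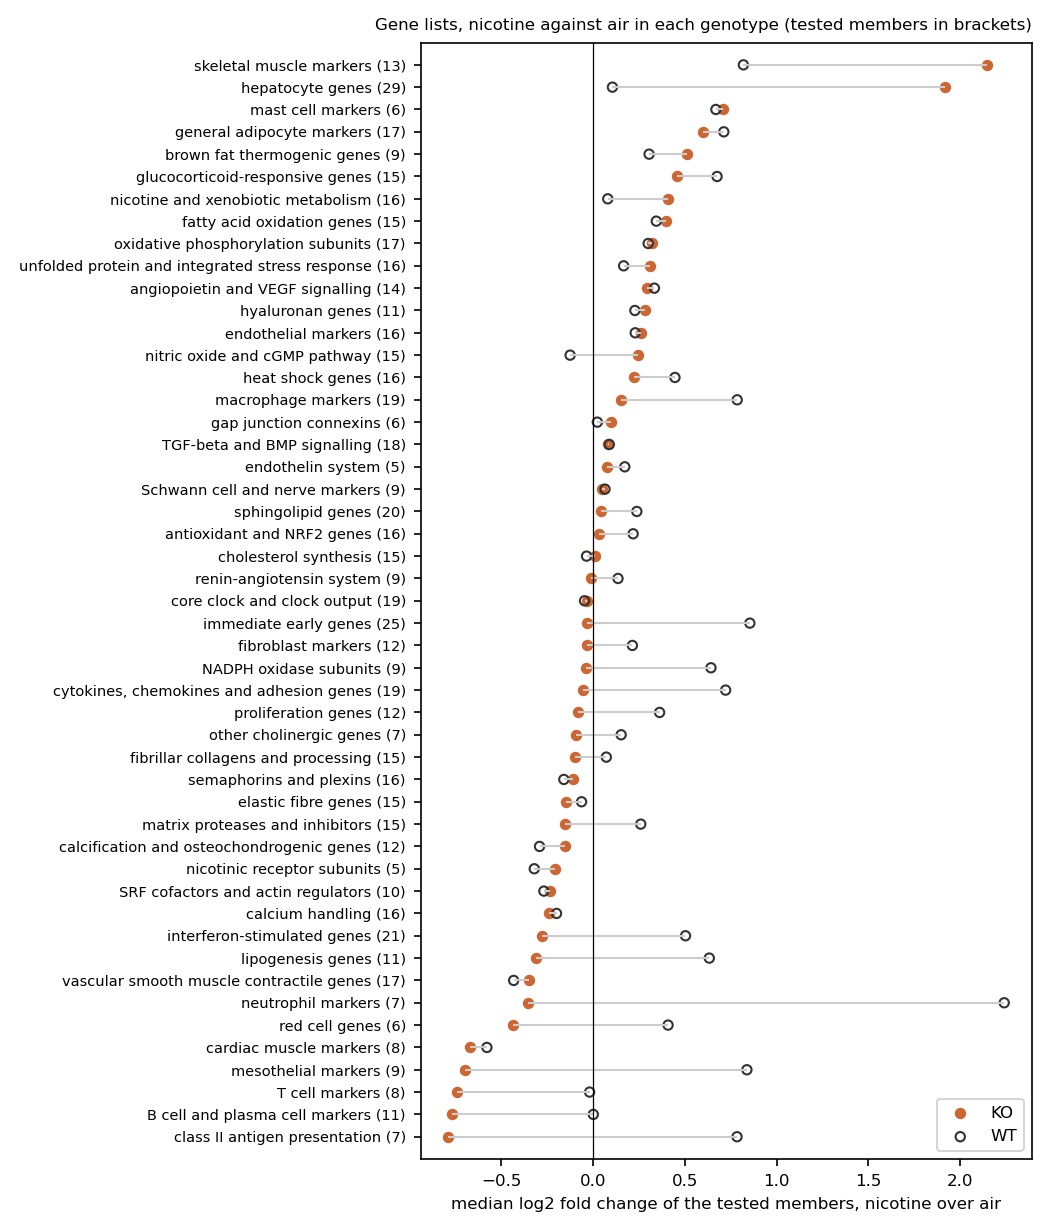
Median log2 fold change of nicotine over air (horizontal axis) in KO (filled circles) and WT (open circles) for each list that had 5 or more tested members (rows, members in brackets), joined by a grey line. Contractile, oxidative phosphorylation and endothelial lists have nearly coinciding circles, while class II, immediate early and neutrophil lists lie apart.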

How the data were processed

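Total RNA of the thoracic aorta was sequenced in 12 libraries, 4 groups of 3 taken from the labels, and the KO groups were compared. Per the submitters' processing notes, HTSeq assigned reads to genes on the mouse build mm9, and the deposited values are raw counts per gene symbol. No source used here names the aligner, the annotation or the strand setting. The authors' deposited table of nicotine against air in KO has 17223 rows, and per the file headers its columns are a mean normalised signal, a log2 fold change with the standard error, a test score, and a raw and an adjusted p-value. The matching WT table was not used here.

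Of 27933 genes, 14621 passed filterByExpr. EdgeR 4.0.16 scaled the counts by TMM (normalisation factors 0.962 to 1.05) and fitted 4 group means by robust quasi-likelihood, leaving 8 residual degrees of freedom. A call needed an adjusted p (Benjamini-Hochberg) under 0.05. Dividing the absolute log2 fold change by the root of the F statistic gave its standard error. The biological coefficient of variation was 0.233. The main choices tried otherwise were DESeq2 1.42.0, limma 3.58.1 voom, size factors, filters, the 6 KO libraries alone and leaving out each library. The fit was checked on simulated counts. Pairs of libraries of a KO group differed by more than counting noise, with a chi-square per degree of freedom of 8.79 to 66, so none was counted as a repeat.

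The comparison, the gene lists and the rule for named genes were chosen with earlier results of these data known. The rule takes 12 genes in each direction by unadjusted p among those without overlap and with a mean of 5 CPM or more in the higher group, skipping clone names, 5 in each direction for the interaction, up to 4 members of each of the 50 lists by unadjusted p and the first 2 listed, the nicotinic subunits, Has1, Errfi1, Rcan1, Tsc22d3, Jchain and the genes called by the authors. One lower gene that the rule takes is not reported here. Myl6, Vcl, Sgk1 and Ttc25 fall outside it. Lists were described by counts and medians, with no test. Promoters came from RefSeq on GRCm38.p6, matched by gene symbol for 10866 of the tested genes. Fits ran in R 4.3.3 and tables in Python 3.11.15 with pandas 2.3.3.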

Additional observations from a re-analysis of the deposited data

Results flagged for a closer look

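In 10 of the genes named, all 3 nicotine libraries lay on one side of air in KO and on the other side in WT. Apart from Adprhl1 and Ttc25 they were named for a small unadjusted interaction p, a choice that favours such crossings. Of all 14621 tested genes, 21 lay above in KO and below in WT and 22 the other way. On the same side in both genotypes were 78 above and 71 below, so more genes shared a side than crossed. The difference between genotypes was tested as edgeR's interaction, and none of the 10 passed. Interactions on the log2 scale were 2.03 ± 0.48 for Vipr1, 1.16 ± 0.30 for Cdk5rap1, 1.24 ± 0.33 for Rin1, 0.55 ± 0.15 for Magt1 and 0.60 ± 0.18 for Epm2aip1, higher in KO. They were -1.35 ± 0.21 for Bhlhe40 (edgeR adjusted p = 0.230), -3.85 ± 0.89 for Adprhl1, -1.61 ± 0.31 for Sfrp4 and -2.10 ± 0.44 for Cd33, lower in KO. Ttc25, a docking protein of ciliary dynein chosen after its values were seen, stood at 5.78, 5.13 and 3.47 CPM in air and 1.92, 2.10 and 1.94 CPM in nicotine in KO and at 0.957, 1.48 and 0.645 CPM in air and 2.66, 2.68 and 1.80 CPM in nicotine in WT, an interaction of -2.46 ± 0.53. DESeq2 called Bhlhe40, Sfrp4, Adprhl1, Cd33 and Ttc25 of these, beside Errfi1, Rcan1, Apold1 and Ccnb2.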

How the results depend on the processing

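No gene was called by edgeR in KO under any of the edgeR alternatives, the lowest adjusted p being 0.0715, and limma voom and DESeq2 on all 12 libraries also gave 0, while DESeq2 on the 6 KO libraries alone gave 7. For the interaction the count was 9 with DESeq2, 1 without the filter on low counts, and 0 to 1 when each library was left out, the 1 being Bhlhe40 without KO nicotine 3 (edgeR adjusted p = 0.0122) and Zbtb16 without WT nicotine 12 (edgeR adjusted p = 0.0302). In WT the 3 calls became 115 with DESeq2, 7 with DESeq2 size factors, 21 without the filter, and 0 to 34 when each library was left out. The cause was not tested. Of the 50 list medians in KO, 25 changed sign under at least 1 alternative, 21 of them when a library was left out, and 46 moved by over 1.5 times when a library was left out. Those of contractile, glucocorticoid-responsive, unfolded protein response, class II and T cell lists kept their sign under every alternative (-0.57 to -0.25, 0.33 to 0.72, 0.24 to 0.38, -1.11 to -0.37 and -1.03 to -0.32), while hepatocyte, mesothelial, cardiac, macrophage, fatty acid synthesis and oxidative phosphorylation medians were among the 21. When each library was left out, log2 fold changes in KO turned sign for Eln (-0.33 to 0.37), Myh6 (-1.91 to 0.086), Alb (-0.55 to 2.65), Arntl (-1.22 to 0.37), Fos (-0.60 to 0.75), Chrna2 (-1.39 to 0.39), Chrnb1 (-0.078 to 0.084), Chrnb2 (-0.58 to 0.30), Rcan1 (-0.0088 to 0.28), Vcl (-0.28 to 0.0031) and Apold1 (-0.21 to 0.13). Eln was -0.051 with limma voom, and Apold1 0.021 with voom, 0.0016 with DESeq2 and 0.00105 with DESeq2 size factors. No paired analysis was possible because the groups share no replicate numbers. With 3 libraries a group, genes of a few CPM such as Ache, Lck and Cd5 rest on few counts.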

Other observations

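Proliferation genes had 8 of 12 tested members below 0 in KO, with a median of -0.08. The 4 above 0 were Birc5 (log2 fold change 1.74), Ccnb1 (0.49), Plk1 (0.23) and Pcna (0.18). Without overlap, 1 of the 12 lay above air and 2 below, where 5.13% and 5.55% of all genes did. Ccnb2, the cyclin B2 gene of dividing cells, stood at 1.53, 1.71 and 2.56 CPM in air and 0.275, 0.381 and 0.162 CPM in nicotine, from raw counts of 2 to 31, without overlap (edgeR log2 fold change -2.80 ± 0.57, unadjusted p = 0.000266). Its edgeR interaction with genotype was -3.90 ± 0.79, called by DESeq2 (adjusted p = 0.0342) but not by edgeR, and its mean stayed under 5 CPM in every group. Cholesterol synthesis genes had 8 of 15 above 0 (median 0.01), TGF-beta and BMP genes 11 of 18 (median 0.08), sphingolipid genes 11 of 20 (median 0.04), semaphorins and plexins 7 of 16 (median -0.11), NADPH oxidase subunits 4 of 9 (median -0.04), renin-angiotensin genes 4 of 9 (median -0.01), calcification genes 4 of 12 (median -0.16), and Schwann cell and nerve markers 5 of 9 (median 0.05). Endothelin genes had 4 of 5 (median 0.08), connexins 4 of 6 (median 0.10), hyaluronan genes 8 of 11 (median 0.28), matrix proteases and inhibitors 7 of 15 (median -0.15) and other cholinergic genes 3 of 7 (median -0.09). Of 9 epithelial markers 2 were tested, 1 above 0 (median 0.10).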
